A study of Rattus norvegicus with 12 samples.

Results

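The 10 genes described here are members of the CCN family and of the YAP pathway: Ctgf, Cyr61, Nov, Wisp1, Wisp2, Ankrd1, Amotl2, Yap1, Wwtr1 and Tead1. They were taken by symbol from the 22442 gene records of the data set, with the record of highest mean expression where several records shared a name. Ctgf had 2 records, and the second one (MSTRG.120) stayed at or below 0.82 FPKM, a level scaled to the length of the transcript and to the mapped fragments of the library. The genes were selected on the measured FPKM of Ctgf, which was low in some libraries of the highest dose, so the values of Ctgf at that dose are a description and were not tested. Records averaging 1 FPKM or more were tested, 11611 in all, and 9 of the 10 genes were among them. Ankrd1 was not.

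The cells were fibroblast-like synoviocytes (FLS), the connective tissue cells of the joint lining, grown from the synovium of male Sprague Dawley rats with adjuvant arthritis (AA) induced by complete Freund's adjuvant. All groups were FLS of AA rats at the third passage, and FLS of healthy rats were not analysed here. The FCA group was kept in DMEM with no addition. AT10, AT1 and AT01 received taurochenodeoxycholic acid (TCDCA), a taurine-conjugated bile acid, at 10, 1 and 0.1 µM (1e-05, 1e-06 and 1e-07 M) for 12 h. Each group had 3 libraries of poly(A) RNA. The age of the rats, and whether the 3 libraries of a group came from separate rats or from separate flasks of one culture, are not given in the sources used here, so the p-values measure only the spread between these libraries, which may be technical. The read counts behind the values were not used here, and the precision of a single value is unknown.

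The label of the cells was checked against marker genes. Of 10 FLS markers, 9 had a record and all 9 were at a mean of at least 1 FPKM, led by the intermediate filament gene Vim with a mean of 2658 FPKM. Of 7 macrophage markers 4 had a record and 2 of them averaged 1 FPKM or more, Cd14 (mean 13.8 FPKM, from 3.60 to 18.82) and Cd68 (2.13 FPKM), while the receptor gene Csf1r stayed at or below 0.26 FPKM and Adgre1 at or below 0.03 FPKM. The endothelial markers with a record were all under a mean of 1 FPKM, with Tie1 at 0 in every library. Of 5 chondrocyte markers, Acan (4.31 FPKM), Comp (1.70 FPKM) and Sox9 (1.32 FPKM) averaged 1 FPKM or more, and the collagen genes Col2a1 and Col9a1 were at most 0.01 and 0.03 FPKM. Of 6 smooth muscle and pericyte markers, 4 had a record and all 4 averaged 1 FPKM or more. The smooth muscle actin gene Acta2, which activated fibroblasts also use, ranged from 125 to 370 FPKM. Cnn1, Des and Myh11 averaged 21.3, 13.0 and 4.18 FPKM.

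CCN proteins are secreted matricellular proteins that bind integrins, growth factors and matrix, and Ctgf (CCN2) and Cyr61 (CCN1) are classical immediate targets of the Hippo pathway. In that pathway the kinases MST and LATS phosphorylate the coactivators YAP (Yap1) and TAZ (Wwtr1) and keep them in the cytoplasm. When the kinases are inactive, or when cells are spread on a stiff surface, YAP and TAZ enter the nucleus and act through DNA-binding TEAD factors. In fibroblasts this activity goes with proliferation, contractility and matrix deposition. Synovial fibroblasts of inflamed joints are known for overgrowth and matrix remodelling.

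The promoters are shown because the members include known targets of TEAD factors. The RefSeq table of rat promoters (build GRCr8) held an entry for 5 of the 10 genes, and the 250 bases before the annotated start were searched for GGAATG, the core of the motif that TEAD factors bind, and for CATTCC, its reverse complement, which do not overlap each other. The promoters of the secreted targets Ctgf and Cyr61 and of Amotl2, a scaffold protein that is both a target and an inhibitor of YAP, are printed from 5′ to 3′ on the strand of the gene, with matches in capitals. Ctgf lies at chr1:22624615-22624864 on the minus strand, Cyr61 at chr2:237225690-237225939 on the minus strand and Amotl2 at chr8:112182376-112182625 on the plus strand.
Ctgf: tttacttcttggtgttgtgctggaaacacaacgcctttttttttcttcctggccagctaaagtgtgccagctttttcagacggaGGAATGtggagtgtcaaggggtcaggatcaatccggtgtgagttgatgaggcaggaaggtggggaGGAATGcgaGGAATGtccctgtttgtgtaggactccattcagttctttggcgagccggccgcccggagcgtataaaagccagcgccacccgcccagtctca
Cyr61: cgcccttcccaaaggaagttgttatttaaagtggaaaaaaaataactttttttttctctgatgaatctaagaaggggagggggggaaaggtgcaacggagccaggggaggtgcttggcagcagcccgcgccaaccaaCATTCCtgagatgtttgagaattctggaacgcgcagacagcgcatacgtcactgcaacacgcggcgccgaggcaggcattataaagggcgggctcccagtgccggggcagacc
Amotl2: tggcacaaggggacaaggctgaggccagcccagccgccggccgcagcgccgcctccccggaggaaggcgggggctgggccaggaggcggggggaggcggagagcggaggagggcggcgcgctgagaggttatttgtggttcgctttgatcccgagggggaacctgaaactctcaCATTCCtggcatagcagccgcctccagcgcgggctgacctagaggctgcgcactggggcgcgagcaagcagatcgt

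Ctgf had 3 matches, at -166 to -161, -101 to -96 and -92 to -87 bases from the start, all in the same orientation. Of 33469 promoters of this length, 27 (0.0807%) had at least 3 matches. Cyr61 had 1 match, at -113 to -108 on the other strand, and Amotl2 had 1 at -76 to -71, also on the other strand. A single match was found in Yap1, at -116 to -111. At least 1 match is held by 12.1% of all promoters. Wwtr1 had no match in this window. Nov, Wisp1, Wisp2, Ankrd1 and Tead1 had no entry. A match is a run of letters and does not show that a factor binds there.

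**Figure D1:**
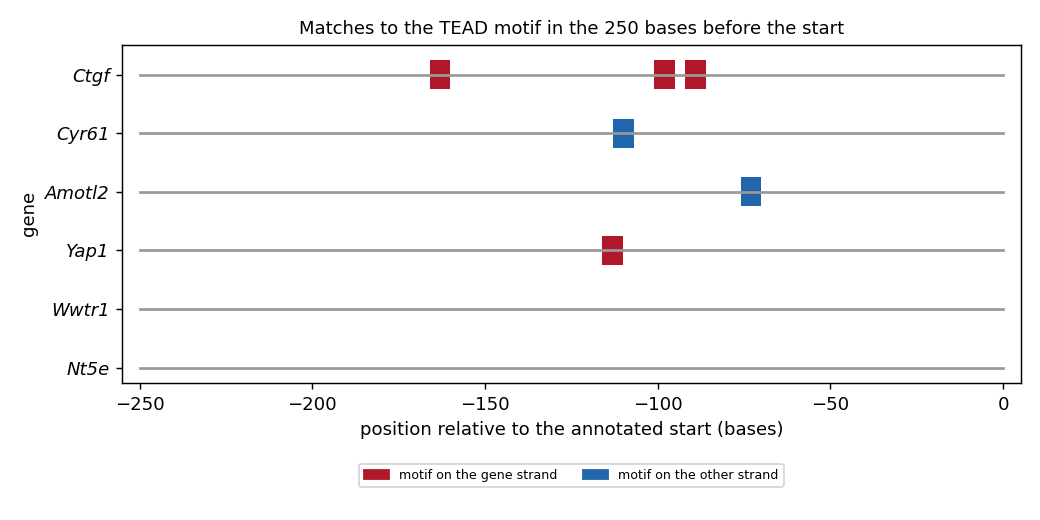
Positions of GGAATG (motif on the gene strand) or CATTCC (motif on the other strand) in the 250 bases before the annotated start of 5 of the 10 genes and of Nt5e, a further YAP target. The horizontal axis is the distance from the start in bases. Ctgf has 3 matches, Cyr61, Amotl2 and Yap1 have 1 each, and Wwtr1 and Nt5e have 0.

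Ctgf, a secreted promoter of matrix production, was among the most abundant messages of the FLS, at rank 56 of 22442 records by mean FPKM. Its record (MSTRG.121) held 703.83, 755.68 and 623.55 FPKM in FCA replicates 1, 2 and 3, and 190.01, 716.87 and 141.59 FPKM in the AT10 replicates. It held 786.66, 649.42 and 680.60 FPKM in AT1 and 548.72, 678.03 and 655.55 FPKM in AT01. AT10 replicates 1 and 3 were therefore low and AT10 replicate 2 lay inside the FCA range. No library of the 2 lower doses was below 548.72 FPKM. By quantitative PCR on RNA from the same batch of FLS, the study reported the opposite direction. There, Ctgf mRNA was significantly higher at the AT10 dose than in the control. The study called its PCR and sequencing results for Ctgf inconsistent and based its conclusions on the PCR. The reason for the difference was not tested here.

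The 12 Ctgf values fell at 2 separate levels, with a gap of 1.53 on the scale of log2(FPKM + 1) and 2 libraries below it. The highest library was 5.56 times the lowest. Relative to the mean of FCA, AT10 replicates 1, 2 and 3 differed by -1.86, 0.05 and -2.28 on that scale. The AT10 mean was 349 ± 319 FPKM (SD, n = 3) beside 694 ± 66.6 in FCA. At the other doses the limma test, a linear model on log2(FPKM + 1), gave a log2 difference from FCA of 0.02 (SE 0.11, adjusted p = 0.945) for AT1 and of -0.15 (SE 0.12, adjusted p = 0.822) for AT01.

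Relative to FCA, some of the fibroblast markers were low in the same libraries. Of the 9 FLS markers, 3 (Vim, Col1a1 and Col3a1) were below every FCA library in AT10 replicates 1 and 3 and not in AT10 replicate 2, and the other 6 were not. This split, defined after the values of Ctgf had been seen, was found in 4.52% of all tested records. The summed FPKM of the 9 FLS markers was 3995 in AT10 replicate 1 and 3686 in AT10 replicate 3, beside 5172 in AT10 replicate 2, 4852 to 5575 in FCA, 4900 to 5018 in AT1 and 4380 to 4968 in AT01. This sum mostly follows Vim, Col1a1 and Col3a1, with means of 2658, 846 and 853 FPKM. The other 6 markers had means of 139 FPKM or less, so the sum says little about them. Vim alone was 1942, 2901 and 2086 FPKM in AT10 replicates 1, 2 and 3 and 2501 to 3084 FPKM in the other libraries. Against the lower doses Col1a1 was not low in AT10 replicate 1, at 854.59 FPKM beside 816.55 to 852.57 FPKM in AT1. Col3a1 in AT10 replicate 1, at 781.02 FPKM, was above AT01 replicate 1, at 740.63 FPKM. The part of these markers in the low Ctgf values was not tested. In bulk RNA, fewer cells of a type and less RNA per cell cannot be told apart.

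**Figure D2:**
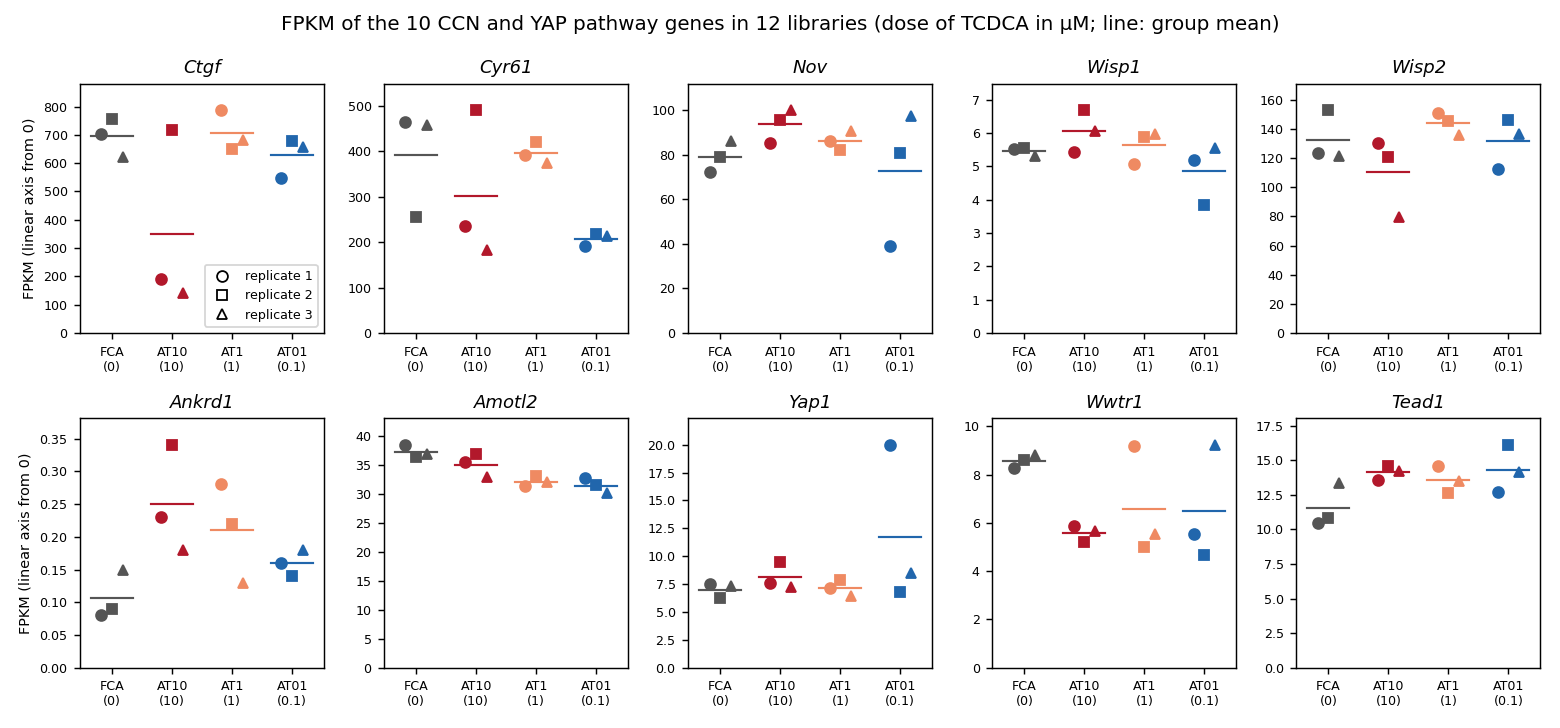
FPKM of each of the 10 genes in the 12 libraries, with 1 panel per gene, a vertical axis of its own that starts at 0, and 1 point per library. Ctgf is low in AT10 replicates 1 and 3, Cyr61 is low in those 2 libraries and in all 3 AT01 libraries, and Yap1 has 1 high library, AT01 replicate 1.

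Cyr61, the immediate-early relative of Ctgf, was low in the same 2 AT10 libraries. Its record (MSTRG.10105, rank 125) held 235.20, 490.23 and 181.88 FPKM in AT10 replicates 1, 2 and 3, and 464.64, 255.17 and 457.74 FPKM in FCA. AT10 replicates 1 and 3 were below every FCA library and AT10 replicate 2 was above every one, so the order of the 3 AT10 libraries was that of Ctgf. The differences from the FCA mean were -0.68, 0.37 and -1.05 on the log2 scale, smaller than those of Ctgf in the 2 low libraries.

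Cyr61 departed from Ctgf in 4 other libraries. The AT01 replicates held 192.69, 218.35 and 213.01 FPKM, all below the lowest FCA library, while Ctgf in AT01 was at 548.72 FPKM or more. FCA replicate 2 had 255.17 FPKM of Cyr61 beside 755.68 FPKM of Ctgf. The AT1 libraries, at 391.26, 421.18 and 375.36 FPKM, lay inside the FCA range. Across the 12 libraries the widest gap between neighbouring Cyr61 values was 0.56 on the log2 scale, so Cyr61 had no 2 separate levels.

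**Figure D3:**
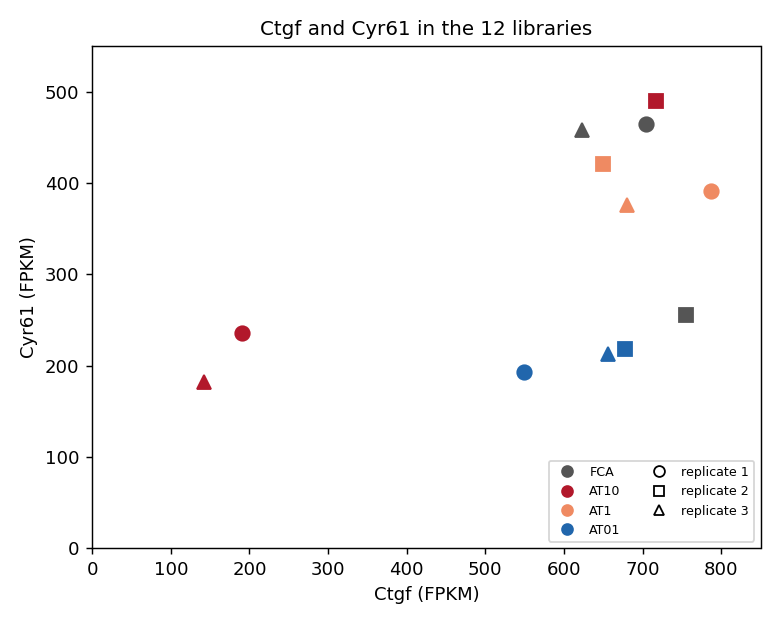
FPKM of Ctgf (horizontal axis) against FPKM of Cyr61 (vertical axis), 1 point per library, with colour for the group and shape for the replicate. AT10 replicates 1 and 3 are low in both genes, whereas the 3 AT01 libraries and FCA replicate 2 are low in Cyr61 alone.

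Between doses, Cyr61 was 1.90 times as high in AT1 as in AT01 by the ratio of mean FPKM, 396 ± 23.3 against 208 ± 13.5 (SD, n = 3 each). The log2 difference was 0.93 (SE 0.08, 95% interval 0.72 to 1.13), with a limma adjusted p of 0.0389 over all records. The two-sided exact permutation p was 0.1, the smallest that 3 libraries against 3 allow. The groups did not overlap, as in 4.86% of all records with the higher values in AT1. In this comparison 0.129% of all tested records had an adjusted p under 0.05, and Cyr61 was the only one of the 8 tested genes other than Ctgf to do so in any of the 7 comparisons. The call did not hold when any 1 of the 6 libraries was left out, with an adjusted p between 0.0587 and 0.186.

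Against FCA, Cyr61 in AT01 differed by -0.86 (SE 0.25, 95% interval -1.47 to -0.25, unadjusted p = 0.0138, limma adjusted p = 0.684), and the groups did not overlap. Non-overlap with lower values was found for 8.06% of all records in that comparison. FCA replicate 2 widened the spread: without it the log2 difference was -1.15, with an adjusted p of 0.0586. The difference of Cyr61 between AT10 and FCA was -0.46 (SE 0.43, adjusted p = 0.678), and between AT1 and FCA it was 0.06 (SE 0.25, adjusted p = 0.931). The 3 comparisons with FCA share the same control libraries.

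Of the other CCN genes, Nov and Wisp1 did not follow the low Ctgf libraries. Wisp2 was low in AT10 replicate 3 but not in AT10 replicate 1. Nov (CCN3, MSTRG.16050), a family member often opposed to Ctgf in its effect on matrix, held 72.13, 78.88 and 86.14 FPKM in FCA and 85.36, 95.45 and 99.83 FPKM in AT10. AT10 replicates 2 and 3 were above every FCA library and AT10 replicate 1 was just below the highest one. The log2 difference was 0.24 (SE 0.09, unadjusted p = 0.0454, limma adjusted p = 0.41).

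Nov in AT1 held 86.21, 81.94 and 90.61 FPKM. In AT01 it held 39.06, 80.78 and 97.42 FPKM, so that AT01 replicate 1 alone was low. The difference of AT01 from FCA was -0.22 (SE 0.34, adjusted p = 0.886).

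Wisp2 (CCN5, MSTRG.11957), a CCN protein without the carboxy-terminal domain of its relatives, held 123.73, 152.83 and 121.79 FPKM in FCA and 130.29, 120.78 and 79.92 FPKM in AT10. AT10 replicate 3 was the lowest of the 12 libraries, AT10 replicate 2 was just under the FCA range and AT10 replicate 1 lay inside it. The AT1 libraries held 150.89, 145.31 and 136.07 FPKM and the AT01 libraries 112.37, 146.54 and 136.40 FPKM. All AT10 values were below all AT1 values, with a difference of -0.41 (SE 0.19, limma adjusted p = 0.748), where 8.16% of all records had such a lower group without overlap. Against FCA the AT10 difference was -0.29 (SE 0.21, adjusted p = 0.601).

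Wisp1 (CCN4, MSTRG.16109), a target of Wnt signalling, was low throughout, between 3.83 and 6.68 FPKM in the 12 libraries. The AT10 libraries held 5.43, 6.68 and 6.06 FPKM beside 5.53, 5.55 and 5.30 FPKM in FCA, a difference of 0.12 (SE 0.09, adjusted p = 0.592). Wisp3, the remaining CCN gene, was at most 0.06 FPKM. The order of mean FPKM within the family was thus Ctgf, Cyr61, Wisp2, Nov, Wisp1 and Wisp3. In AT10 replicates 1 and 3 Cyr61 exceeded Ctgf, as in no other library.

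Of the other YAP targets among the 10 genes, Ankrd1, which encodes a stress-responsive nuclear and sarcomere protein, was nearly silent. It ranged from 0.08 to 0.15 FPKM in FCA and from 0.13 to 0.34 FPKM in the 9 TCDCA libraries, under the minimum for testing. Amotl2 (MSTRG.17344) held 38.36, 36.27 and 36.88 FPKM in FCA and 35.41, 36.85 and 32.78 FPKM in AT10. AT10 replicates 1 and 3 were again below every FCA library, but by less than 0.2 on the log2 scale.

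At the lower doses Amotl2 held 31.23, 32.97 and 32.00 FPKM in AT1 and 32.61, 31.45 and 30.10 FPKM in AT01, all below FCA. The differences from FCA were -0.21 (SE 0.05, unadjusted p = 0.00879, limma adjusted p = 0.42) in AT1 and -0.24 (SE 0.07, unadjusted p = 0.0121, adjusted p = 0.677) in AT01. Neither passed the adjustment over all records, and lower values without overlap were found for 10% of all records in AT1 and 8.06% in AT01. For the 9 TCDCA libraries as 1 group the difference was -0.18 (SE 0.06, limma adjusted p = 0.339, exact permutation p = 0.0182), and 8 of 9 TCDCA libraries were below every FCA library. Here and below, the doses pooled in this group are not replicates of one another, so its spread holds dose differences too. Amotl2 was higher in AT10 than in AT01 without overlap, as were 4.64% of all records, with a difference of 0.15 (SE 0.08, adjusted p = 0.867).

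The regulators themselves gave a separate picture. Wwtr1, which encodes TAZ (MSTRG.9439), held 8.26, 8.62 and 8.82 FPKM in FCA and 5.86, 5.20 and 5.65 FPKM in AT10. All 3 AT10 libraries were below all FCA libraries, including replicate 2 with its high Ctgf. The log2 difference was -0.54 (SE 0.07, 95% interval -0.72 to -0.37, unadjusted p = 0.000317, limma adjusted p = 0.0892), and the exact permutation p was 0.1, the smallest possible. Lower values without overlap were found for 9.18% of all records in this comparison.

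The AT1 libraries held 9.20, 4.99 and 5.53 FPKM of Wwtr1 and the AT01 libraries 5.54, 4.66 and 9.22 FPKM. Each of these groups had 1 library above FCA and 2 below it, and over all TCDCA libraries 7 of 9 were below every FCA library. The difference of the 9 TCDCA libraries from FCA was -0.44 (SE 0.18, limma adjusted p = 0.373, exact permutation p = 0.0909). The differences of the single doses were -0.38 (SE 0.21, adjusted p = 0.513) in AT1 and -0.40 (SE 0.22, adjusted p = 0.767) in AT01.

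Yap1 (MSTRG.16621) held 7.49, 6.26 and 7.29 FPKM in FCA, 7.61, 9.46 and 7.25 FPKM in AT10 and 7.13, 7.87 and 6.40 FPKM in AT1. In AT01 it held 19.96, 6.80 and 8.46 FPKM. AT01 replicate 1 stood alone above the other 11 libraries, and it was also the library with the lowest Nov. The difference of AT10 from FCA was 0.18 (SE 0.12, adjusted p = 0.575) and that of AT01 was 0.53 (SE 0.37, adjusted p = 0.805).

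Tead1 (MSTRG.1334), the DNA-binding partner, held 10.50, 10.82 and 13.33 FPKM in FCA and 13.55, 14.61 and 14.20 FPKM in AT10. All AT10 libraries were above all FCA libraries, replicates 1 and 3 as well as replicate 2. The difference was 0.28 (SE 0.10, unadjusted p = 0.0374, limma adjusted p = 0.395). Higher values without overlap were found for 10.7% of all records in this comparison. In AT1 it held 14.61, 12.62 and 13.50 FPKM and in AT01 12.69, 16.10 and 14.15 FPKM. The 9 TCDCA libraries together differed from FCA by 0.26 (SE 0.08, limma adjusted p = 0.311, exact permutation p = 0.0273).

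**Figure D4:**
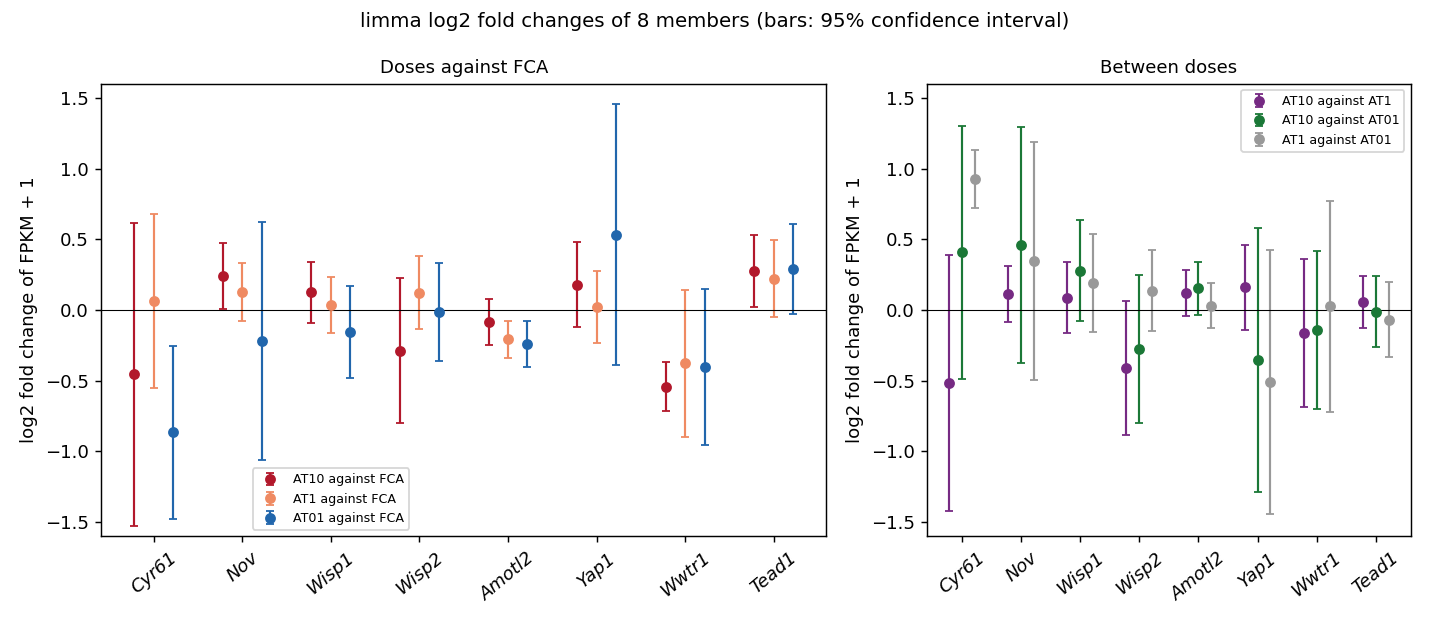
Log2 fold changes of FPKM + 1 for the 8 tested genes other than Ctgf, from limma with 2 groups at a time. Points are estimates, bars are 95% confidence intervals, the left panel shows the 3 doses against FCA and the right panel the comparisons between doses. The AT1 against AT01 difference of Cyr61, 0.93, is the single one with an adjusted p under 0.05.

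The study called a gene changed when its unadjusted p was under 0.05 and its log2 fold change lay beyond 1 in either direction. None of the 8 tested genes other than Ctgf met this criterion in any of the 7 comparisons. Of all records it was met by 0.706% in AT10, 0.62% in AT1, 0.758% in AT01 and 0.491% in all TCDCA libraries, each against FCA. Between doses it was met by 0.568% (AT1 and AT01), 0.672% (AT10 and AT01) and 0.594% (AT10 and AT1). An adjusted p under 0.05 in limma was reached by Cyr61 in AT1 against AT01 and by none of the 8 elsewhere. Of all records it was reached by 0.172% in AT10, 0.0947% in AT1, 0.0947% in AT01 and 0.0258% in all TCDCA libraries, and by 0.0689% (AT10 and AT01) and 0.258% (AT10 and AT1) between doses.

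At an unadjusted p under 0.05 the count was 3 of 8 in AT10 against FCA (Nov and Tead1 higher, Wwtr1 lower), beside 11.9% of all records. It was 1 of 8 in AT1 (Amotl2, background 11%), 2 of 8 in AT01 (Cyr61 and Amotl2, background 6.6%) and 3 of 8 in all TCDCA libraries (Tead1, Amotl2 and Wwtr1, background 12%). Between doses it was 1 of 8, Cyr61, for AT1 and AT01 (background 3.43%), 0 of 8 for AT10 and AT01 (4.97%) and 0 of 8 for AT10 and AT1 (6.46%). Their median log2 difference from FCA was 0.02 in AT10, with 4 of 8 below, 0.05 in AT1, with 2 of 8 below, and -0.19 in AT01, with 6 of 8 below. The medians of all tested records were -0.01, 0.02 and 0.00.

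The split of Ctgf within AT10 was then looked for in the other genes. AT10 replicates 1 and 3 were below every FCA library, and replicate 2 was not, in 525 of 11611 tested records (4.52%), a definition chosen after the values of Ctgf had been seen. Among the 8 tested genes other than Ctgf it applied to Cyr61 and Amotl2. It did not apply to Nov, Wisp1, Wisp2, Yap1, Wwtr1 or Tead1. With both low libraries required to be at least 0.5 on the log2 scale below AT10 replicate 2 and below every FCA library, 29 records (0.25%) were left. Of the 10 genes Ctgf was then the only one, since FCA replicate 2 is itself low in Cyr61.

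A list of 25 other genes reported as targets of YAP or TAZ was described in the same way. Arhgef17, Fjx1 and Foxf2 matched no record by name, and the other 22 were tested. The criterion of the study was met by 0 of 22 in each of the 7 comparisons, as was an adjusted p under 0.05 in limma, while an unadjusted p under 0.05 was reached by 1 gene (Tgfb2) in AT10 against FCA, beside 11.9% of all records, by 1 (Gadd45b) in AT1, by 1 (Birc5) in AT1 against AT01 and by 1 (Tgfb2) in all TCDCA libraries. In AT10 10 of 22 were above FCA and 12 below, with a median of -0.02, in AT1 10 and 12 with a median of -0.02, and in AT01 8 and 14 with a median of -0.04. Among the most abundant targets were Thbs1, F3, Myof and Axl.

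Thbs1, which encodes the matrix protein thrombospondin 1, ranged from 1417 to 1956 FPKM over the 12 libraries. Its AT10 values were 1955.72, 1538.12 and 1417.16 FPKM, so that AT10 replicate 1 was the highest of all libraries. It did not follow the split of Ctgf.

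F3, which encodes tissue factor, did show the split of Ctgf, with AT10 replicates 1 and 3 below every FCA library and replicate 2 not. It held 80.48, 131.27 and 72.94 FPKM in AT10 beside 133.38, 101.79 and 126.61 FPKM in FCA. It was as low, at 69.75 FPKM, in AT1 replicate 2, where Ctgf was at 649.42 FPKM. The AT10 difference of F3 from FCA was -0.38 (SE 0.24, adjusted p = 0.559).

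Nt5e and Crim1, named here after their values were seen, were the other 2 of 22 targets with this split, which was found in 4.52% of all records. Nt5e, which encodes the ecto-5′-nucleotidase CD73, a surface marker of fibroblasts, held 11.26, 24.39 and 10.84 FPKM in AT10 and 23.55, 19.35 and 19.87 FPKM in FCA. It was the only listed gene beside Ctgf with both libraries at least 0.5 on the log2 scale below AT10 replicate 2 and every FCA library. It was also low in AT1 replicate 3, at 13.20 FPKM, and in AT01 replicate 2, at 12.85 FPKM, where Ctgf was not. The AT10 difference of Nt5e from FCA was -0.50 (SE 0.31, adjusted p = 0.555). Crim1 followed by a small margin, with 17.87, 18.98 and 16.63 FPKM in AT10 beside 18.72 to 19.74 FPKM in FCA.

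Also named after their values were seen are Tgfb2 and Edn1. Tgfb2, a transforming growth factor and itself an inducer of Ctgf, held 2.56, 2.90 and 2.55 FPKM in AT10 and 4.21, 3.56 and 3.87 FPKM in FCA, without overlap. The difference was -0.41 (SE 0.09, unadjusted p = 0.0038, limma adjusted p = 0.187). Of all records, 9.18% were lower without overlap in AT10 against FCA. Edn1, which encodes endothelin 1, ranged from 1.62 to 2.22 FPKM in the 9 TCDCA libraries, all below the 2.24 to 2.47 FPKM of FCA. Its difference was -0.16 (SE 0.07, limma adjusted p = 0.42, exact permutation p = 0.00909), and 1.9% of all records were lower without overlap in this comparison.

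**Figure D5:**
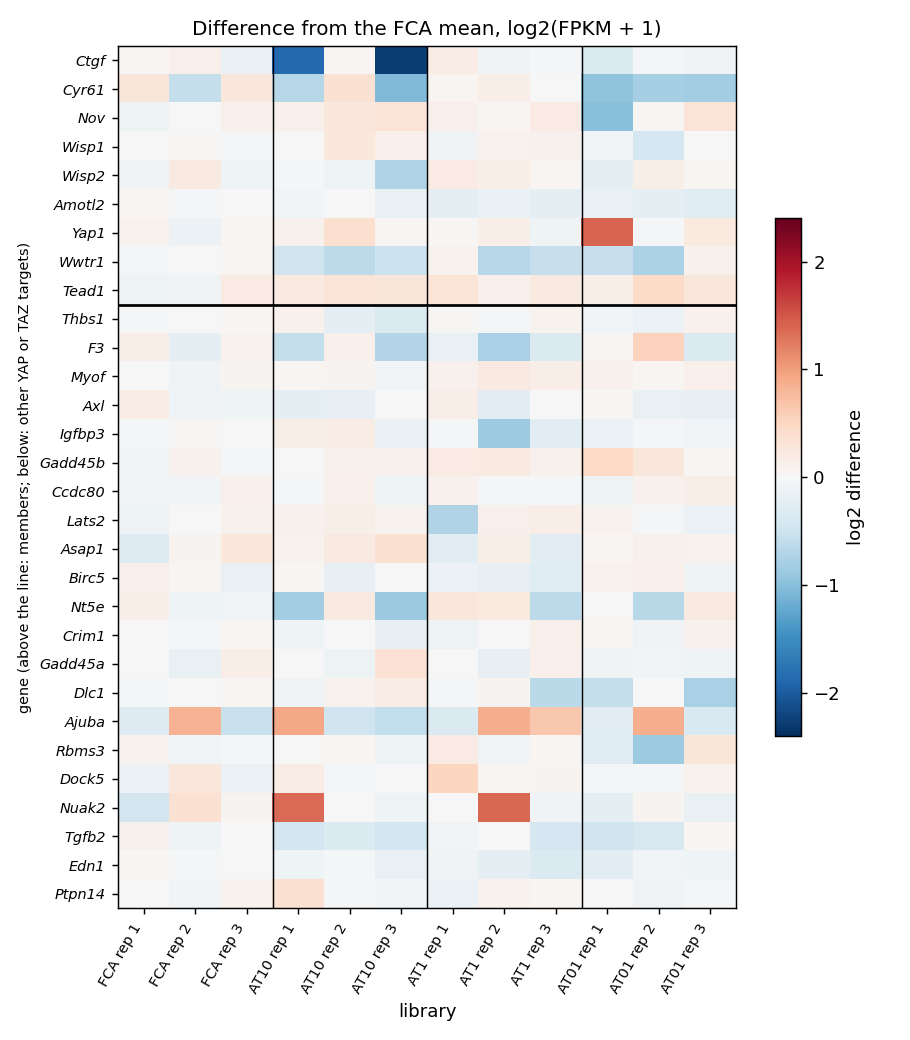
Difference of each library from the FCA mean, on the scale of log2(FPKM + 1), for the 9 tested genes (above the line) and for all but 1 of the 22 tested YAP or TAZ targets (below it). Blue is lower and red is higher, with 1 column per library. The dark cells of Ctgf in AT10 replicates 1 and 3 (-1.86 and -2.28) are matched in direction by several rows, among them Cyr61, F3 and Nt5e. Smaller decreases in both libraries appear in further rows, such as Wwtr1, Tgfb2 and Amotl2. Thbs1 does not match, since AT10 replicate 1 is its highest library.

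A list of 25 components of the Hippo pathway ran from cell surface proteins and kinases to TEAD factors and their cofactors. Lats2, Ptpn14 and Ajuba were also on the list of targets above, so the counts of both lists include them. Of the 25 components, 23 were tested and Tead2 and Wwc1 were below the minimum. None met the criterion of the study and none had a limma adjusted p under 0.05 in the 7 comparisons, while 2 had an unadjusted p under 0.05 in AT10 against FCA (Taok1 and Tead3), beside 11.9% of all records. In AT10 9 of 23 were above FCA and 14 below, with a median of -0.05, and with all TCDCA libraries 15 were above and 8 below, with a median of 0.04. In none of the 23 were AT10 replicates 1 and 3 below every FCA library with replicate 2 not. The 5 most abundant were the protocadherin gene Fat1, the kinase gene Map4k4, the scaffold gene Sav1, the kinase gene Lats2 and the FERM domain gene Frmd6.

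Fat1 held 51.49, 41.08 and 51.14 FPKM in FCA, 44.28, 49.41 and 45.63 FPKM in AT10, 56.42, 59.91 and 59.61 FPKM in AT1 and 63.94, 53.35 and 57.51 FPKM in AT01. The 2 lower doses were above FCA without overlap, as in 9.87% of all records for AT1 and 5.97% for AT01, and AT10 was not. AT10 was below AT1 by 0.33 (SE 0.06, unadjusted p = 0.0026, limma adjusted p = 0.394). Lats2, a kinase of YAP and itself a YAP target, stayed between 21.37 and 26.50 FPKM except in AT1 replicate 1, at 13.89 FPKM. Sav1 stayed between 21.80 and 27.77 FPKM except in FCA replicate 2, at 39.71 FPKM.

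Tead3, Taok1 and Mob1a are named after their values were seen. Tead3, a further TEAD factor, held 15.34, 13.50 and 15.50 FPKM in FCA and 11.89, 12.54 and 9.59 FPKM in AT10, without overlap and in the opposite direction to Tead1. The difference was -0.36 (SE 0.12, unadjusted p = 0.0226, limma adjusted p = 0.346), and for all TCDCA libraries it was -0.37 (SE 0.11, limma adjusted p = 0.306, exact permutation p = 0.0182). Of all records, 9.18% were lower without overlap in AT10 against FCA. Taok1, a kinase that activates MST, held 6.22, 7.40 and 7.56 FPKM in AT10 beside 4.51, 4.51 and 5.22 FPKM in FCA, a difference of 0.49 (SE 0.10, limma adjusted p = 0.178).

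Mob1a, the adaptor of the LATS kinases, was the single one of these components at 2 separate levels, with 6 libraries from 2.44 to 6.64 FPKM and 6 from 17.42 to 22.47 FPKM. The low libraries were FCA replicate 1, AT10 replicates 1 and 2, AT1 replicate 3 and AT01 replicates 2 and 3. They differed from the low libraries of Ctgf, since AT10 replicate 3 had the highest Mob1a and the lowest Ctgf. Separation into 2 levels, as in Ctgf, was found for 4.52% of all tested records.

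The records whose pattern over the 12 libraries was most like that of Ctgf were ranked by the root mean square difference of log2(FPKM + 1), each record centred on its own mean. A flat record would differ by 0.77. The 5 nearest were Emp2 (0.42), Nxn (0.43), Brox (0.49), Mpv17l2 (0.50) and Rin1 (0.52). Emp2, a tetraspan membrane protein gene, held 0.66, 4.92 and 0.52 FPKM in AT10 and 4.50 to 4.86 FPKM in FCA, but it was also low in AT01 replicate 1, at 0.77 FPKM. Nxn, which encodes the redox protein nucleoredoxin, held 5.50, 9.88 and 4.20 FPKM in AT10 and between 9.56 and 10.81 FPKM in all other libraries.

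None of the other 9 genes was among these. Wisp2 ranked 73rd (0.63) and Cyr61 180th (0.67), and Wwtr1 came next at 0.75. With each profile divided by its SD the ranks were 142 for Wisp2 and 626 for Cyr61. Amotl2, Tead1, Wisp1, Yap1 and Nov differed from Ctgf by more than a flat record does.

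Correlations over the 12 libraries were computed for the 36 pairs of the 9 genes other than Ctgf, which was left out because its values lie at 2 levels. None of the 36 had a permutation p under 0.05 after adjustment over the pairs, and 2 did before it. These were Amotl2 with Tead1 (r = -0.59, permutation p = 0.0424, adjusted p = 0.866) and Ankrd1 with Tead1 (r = 0.58, permutation p = 0.0481, adjusted p = 0.866). Their Spearman rho was -0.54 (permutation p = 0.0722, adjusted p = 0.468) and 0.55 (permutation p = 0.0646, adjusted p = 0.468), and without the 2 farthest libraries r was -0.44 and 0.53. Ankrd1 was at most 0.34 FPKM, under the minimum for testing, so its pairs rest on very low values of unknown precision. Cyr61 and Amotl2 had a Pearson r of 0.49 (permutation p = 0.105, adjusted p = 0.904) and a Spearman rho of 0.61 (permutation p = 0.0386, adjusted p = 0.468). Their r was 0.67 with the group means removed (permutation p = 0.0166, adjusted p = 0.298) and 0.48 without the 2 libraries farthest in Cyr61. The permutation with group means removed treated the 12 centred values as independent, which they are not, so its p is likely too small. Nov and Yap1 had an r of -0.81 (permutation p = 0.0739, adjusted p = 0.887) and a rho of -0.01 (permutation p = 0.991, adjusted p = 0.991). That relation rested on AT01 replicate 1: without it and FCA replicate 1 the r was 0.52.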

How the data were processed

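Poly(A) RNA of FLS from AA rats was sequenced in 12 libraries, 3 for each of FCA, AT10, AT1 and AT01, grouped by their labels. The authors trimmed reads with cutadapt, aligned them with HISAT2, and assembled and quantified transcripts with StringTie and Ballgown. They deposited FPKM to 2 decimals with 1 column per library. The genome build of the alignment and any scaling between libraries are not given in the sources used here. The study lists the total reads of each library, which differ between libraries. FPKM carries no read counts for single records, so no counting interval is given. The labels and the methods text name different sequencing instruments. The libraries were made by a method that marks strand, but whether strand was used in quantification is not given in the sources used here. Records of 1 gene split by the assembly, or overlapping genes merged by it, cannot be told apart from the FPKM. No column of the table was left out (0 columns of values not used).

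Values were transformed as log2(FPKM + 1). Records averaging 1 FPKM or more (11611 of 22442) were tested in R 4.3.3 with lmFit and a trended eBayes of limma 3.58.1, 2 groups at a time, plus the 9 TCDCA libraries against FCA, and p-values were adjusted by the Benjamini-Hochberg method over all 11611. Adjusted p-values in the text are from this test unless a correlation is named. Single genes also have a two-sided exact permutation p for their difference of means. Its lower limit is 0.1 with 3 libraries against 3 and 0.00909 with 9 against 3. A record was taken to lie at 2 separate levels where sorted log2 values left a widest gap of at least 1 that exceeded the range within each level, with at least 2 libraries on each side, a definition chosen after such records had been seen. Correlations used 100000 permutations. Work in Python 3.11.15 used NumPy 2.4.6, SciPy 1.17.1, pandas 2.3.3 and Matplotlib 3.10.9. The tests were tried on simulated data.

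The genes named are the 10 members, the 5 most abundant tested genes of each list, every listed gene called in a comparison and the 5 records most like Ctgf. A gene named by this rule is not reported here. Others are said to be chosen after their values were seen. The members and lists were chosen with earlier results of these data known. Alternatives were another pseudocount, other filters, FPKM summed by gene name, a Ballgown-like F test, 1 joint fit of all libraries, scaling by median of ratios, the replicate number as a block and each library left out in turn. Promoters came from RefSeq (GRCr8), and no coordinates of the records are given.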

Additional observations from a re-analysis of the deposited data

How the results depend on the processing

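The number of the 8 tested genes other than Ctgf that met the criterion of the study stayed at 0 under every alternative in 6 of the 7 comparisons. In AT01 against FCA it ranged from 0 to 1 with single libraries left out, the 1 being Cyr61 without FCA replicate 2. The adjusted call of Cyr61 in AT1 against AT01 was lost, with 0 of 8 genes left, without a filter (adjusted p = 0.134), in 1 fit over all 12 libraries (1), by a Ballgown-like F test (0.163), and with any single library left out (0 to 0 genes, log2 difference 0.87 to 0.96). It was kept with a pseudocount of 0.1, at a minimum mean of 10 FPKM, with median-of-ratios scaling and with FPKM summed by gene name (adjusted p between 0.0323 and 0.0443). Wwtr1 in AT10 against FCA stayed between -0.61 and -0.50 with an adjusted p between 0.0822 and 0.454. Fold changes were recomputed for selected comparisons of Amotl2, Ctgf, Cyr61, Nov, Tead1, Wisp2 and Wwtr1, and none of these 209 values changed sign. Differences near 0, such as those of Wisp1, were not among them. Of the 5 genes most like Ctgf, 3 were kept with a pseudocount of 0.1 and 1, Nxn, with profiles divided by their SD. No pair of genes had an adjusted correlation p under 0.05 under any alternative.

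The replicate numbers did not pair the libraries: same-numbered libraries had deviations from their group means with a correlation between -0.11 and 0.09 (median 0.0035, 18 pairs, 0 over 0.1). With the replicate number as a block, 0 of 8 genes kept an adjusted p under 0.05 in AT1 against AT01 (Cyr61 adjusted p = 0.426), and all tested records with an adjusted p under 0.05 in AT10 against FCA went from 20 to 1.

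Counts over all tested records moved more. Records that met the criterion in AT10 against FCA were 82, against 147 with a pseudocount of 0.1, 19 at a minimum of 10 FPKM and 48 by the F test. The ranges over all alternatives were 34 to 90 in AT1 against FCA (72 in the report's fit), 40 to 121 in AT01 against FCA (88), 28 to 108 in AT10 against AT1 (69), 32 to 141 in AT10 against AT01 (78), 26 to 89 in AT1 against AT01 (66) and 18 to 89 for all TCDCA libraries (57). For an adjusted p under 0.05 they were 1 to 35 in AT10 against FCA (20), 0 to 33 in AT1 (11), 2 to 30 in AT01 (11), 1 to 50 in AT10 against AT1 (30), 0 to 24 in AT10 against AT01 (8), 2 to 25 in AT1 against AT01 (15) and 1 to 22 for all TCDCA libraries (3). The cause of these shifts was not tested. The reads behind single values are unknown, so low values such as those of Ankrd1 and Wisp3 (0.34 FPKM or less) were given no counting error.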

Other observations

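Nuak2 and Ajuba, a kinase gene and a LATS inhibitor gene named here after their values were seen, each stood high in some libraries without regard to dose. Nuak2 held 8.05 FPKM in AT10 replicate 1 and 8.16 FPKM in AT1 replicate 2, and between 1.63 and 3.56 FPKM in the other 10 libraries. Ajuba held 9.41 to 11.58 FPKM in FCA replicate 2, AT10 replicate 1, AT1 replicates 2 and 3 and AT01 replicate 2, and 3.38 to 4.52 FPKM in the other 7. Each differed in this from Ctgf, whose 2 low libraries were AT10 replicates 1 and 3.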
